A study of Mus musculus with 16 samples.

Results

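The NF-kB subunits and their feedback inhibitors were followed in mammary adipose tissue of 4 groups of mice. They are 9 of the 23179 genes listed, and the rule took them by name. The subunits were Nfkb1 (encoding p105/p50), Nfkb2 (p100/p52), Rela (p65), Relb and Rel (c-Rel), and the inhibitors were Nfkbia, Nfkbie, Nfkbiz and Tnfaip3. All 9 passed the filter on low values. RNA-Seq was run on the 9th mammary fat pad of wild-type female C57BL/6N mice, opposite a 4th fat pad that had received E0771 cells, a mouse mammary cancer line. Every mouse of every group received these tumor cells, so no tissue of tumor-free mice was compared. CON-LFD mice were kept on the control diet D12450J. DIO-HFD mice were made obese on the 60% high-fat diet D12492 and stayed on it, DIO-LFD mice were made obese in the same way and then moved to a low-fat diet, and DIO-VSG mice were made obese and then had vertical sleeve gastrectomy (VSG), in which most of the stomach is cut away, together with the low-fat diet. The other 3 groups had a sham operation, and tumor cells were injected 22 weeks after randomization. Each group held 4 libraries. Age was not given in the labels, nor were separate animals named beyond a number for each library, so the P values measure the spread between these libraries. The labels also name the sample as E0771 cells beside normal mammary tissue. Adiponectin (Adipoq), a defining adipocyte gene, was present at 30428 to 123530 normalized counts and the epithelial gene Epcam at 2441 to 9583, so markers of fat pad tissue were present in every library.

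NF-kB dimers are held in the cytoplasm by inhibitor of kB (IkB) proteins. In the canonical route a kinase complex marks IkB for destruction and dimers of p50 with p65 or c-Rel enter the nucleus. In the non-canonical route p100 is processed to p52, which acts with RelB. Nfkbia, Nfkbie, Tnfaip3, Nfkb2, Relb and Rel are known target genes of NF-kB itself, which gives the pathway its negative and positive feedback. In adipose tissue the pathway is studied as part of obesity-associated inflammation, and c-Rel and RelB are best known from lymphocytes and dendritic cells.

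The sequence before the transcription start was examined because the members include known targets of their own pathway. RefSeq promoter windows (GRCm38.p6) were present for 6 of the 9 members (Nfkb2, Rela, Rel, Nfkbia, Nfkbie and Tnfaip3). The kappa B consensus, a 10-base motif, was searched on both strands in the 250 bases before each start, and overlapping matches were kept. It was found for 5 of these 6 members, in 7 of their 9 windows, against 7.25% of all 32851 windows. The Rela window held none, which says only that these letters are not in it. The bases of the Rel, Nfkbie and Nfkbia windows that lie outside the annotated gene are printed 5′ to 3′ on the strand of the gene, with the matched bases in capitals, since Rel and Nfkbie turned out to vary most among the libraries and Nfkbia much less.
Rel (chr11:23770971-23771219, minus strand): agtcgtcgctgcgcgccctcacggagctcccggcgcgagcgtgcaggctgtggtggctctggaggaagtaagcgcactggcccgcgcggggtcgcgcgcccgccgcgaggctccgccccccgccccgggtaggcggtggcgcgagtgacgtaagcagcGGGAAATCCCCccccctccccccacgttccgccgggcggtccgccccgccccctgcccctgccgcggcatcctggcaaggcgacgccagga
Nfkbie (chr17:45555450-45555699, plus strand): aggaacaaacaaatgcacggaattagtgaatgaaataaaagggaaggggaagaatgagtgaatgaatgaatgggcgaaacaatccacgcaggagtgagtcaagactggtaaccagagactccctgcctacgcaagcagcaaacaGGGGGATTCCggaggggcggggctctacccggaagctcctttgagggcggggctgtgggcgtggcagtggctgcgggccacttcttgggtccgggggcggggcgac
Nfkbia (chr12:55492648-55492897, minus strand): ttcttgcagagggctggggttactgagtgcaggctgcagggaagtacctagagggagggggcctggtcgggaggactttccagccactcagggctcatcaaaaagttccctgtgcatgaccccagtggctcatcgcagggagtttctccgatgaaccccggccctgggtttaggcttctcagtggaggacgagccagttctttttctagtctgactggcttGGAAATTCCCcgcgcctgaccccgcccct
The start lies just beyond the right end of the Nfkbie and Nfkbia lines. The Rel line holds 249 of the 250 bases searched, since the last one, at position 23770970, lies in the annotated gene. The match ends 82 bases before the start in Rel, 97 in Nfkbie and 20 in Nfkbia. The Nfkb2 and Tnfaip3 windows overlap annotated transcripts of the same genes, so only the matched sites are shown, with up to 10 bases on each side.
Tnfaip3 (chr10:19015516-19015545, minus strand): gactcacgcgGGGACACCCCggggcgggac
Tnfaip3 (chr10:19015411-19015432, minus strand): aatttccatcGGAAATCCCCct
Nfkb2 (chr19:46304688-46304717, plus strand): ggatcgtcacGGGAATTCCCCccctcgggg
Nfkb2 (chr19:46304716-46304736, plus strand): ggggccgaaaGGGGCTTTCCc
Nfkb2 (chr19:46305449-46305478, plus strand): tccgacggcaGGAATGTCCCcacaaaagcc
Nfkb2 (chr19:46305695-46305724, plus strand): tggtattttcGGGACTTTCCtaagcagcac
Both genes had more than 1 match, and the 4 sites of Nfkb2 lay before 3 different starts. A match is a description of the sequence and no evidence that the site was bound in these mice.

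Library totals ranged from 46907377 to 57610899 reads, and the lowest number of reads behind a value of a member was 368, so counting error was small beside the differences between libraries. The labels named no sequencing batch. A score was computed for each cell type by centring the log2 level of every marker on its mean across libraries and averaging the markers. By the B cell score (17 of 18 markers listed) and the T cell score (20 of 20), 4 libraries stood apart: CON-LFD replicates 2 and 4 and DIO-HFD replicates 2 and 3. Their B cell scores were -5.10 to -2.14 against -0.16 to 2.08 in the other 12 libraries, and their summed T cell markers 2352 to 4536 normalized counts against 16975 to 91280. The T cell gene Cd3e was above 0 in all 16 libraries, at 69.9 to 208 normalized counts in the 4 and 961 to 4974 in the 12. Both affected groups thus held 2 libraries of each kind, and the comparisons of the members that involve them are given with and without these 4. The lymph node stroma score followed the same split, with scores down to -3.34 in the 4 and of 0.09 to 1.66 in the 12, all of which were above the 4. In bulk tissue, fewer cells of a type and less RNA per cell cannot be told apart.

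Per kilobase of the longest annotated transcript, Nfkbia had the highest mean level of the members, at 4277 normalized counts per kb, and Nfkb1 and Rela followed at 1628 and 1568. The mean was 936 for Nfkb2, 647 for Relb, 449 for Nfkbie, 398 for Nfkbiz, 373 for Tnfaip3 and 370 for Rel. The range of Nfkbia over libraries, 2758 to 6106, lay above that of Nfkb1, 1168 to 2444, whereas all later neighbours in this order overlapped and the lowest 4 lay close together. Among the 5 subunits on this scale, Nfkb1 took a median share of 31.5% and Rela one of 30.2%, Nfkb2 took 18.6%, Relb 12.2% and Rel 6.44%. The Nfkb1 share stayed between 29.6% and 37.3%, whereas that of Rel went from 2.42% in CON-LFD replicate 2 to 9.92% in DIO-HFD replicate 1 and that of Rela from 41.6% in CON-LFD replicate 4 to 23% in DIO-HFD replicate 1. In DIO-VSG the Rel share was 8.96% to 9.9% and the Rela share 25.3% to 27.8%, which lay below the DIO-LFD range for Rela of 30% to 37.1% and above the DIO-LFD range for Rel of 5.25% to 6.73%. Shares add up to a fixed total, so one cannot rise without another falling, and no test was run on them.

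**Figure D1:**
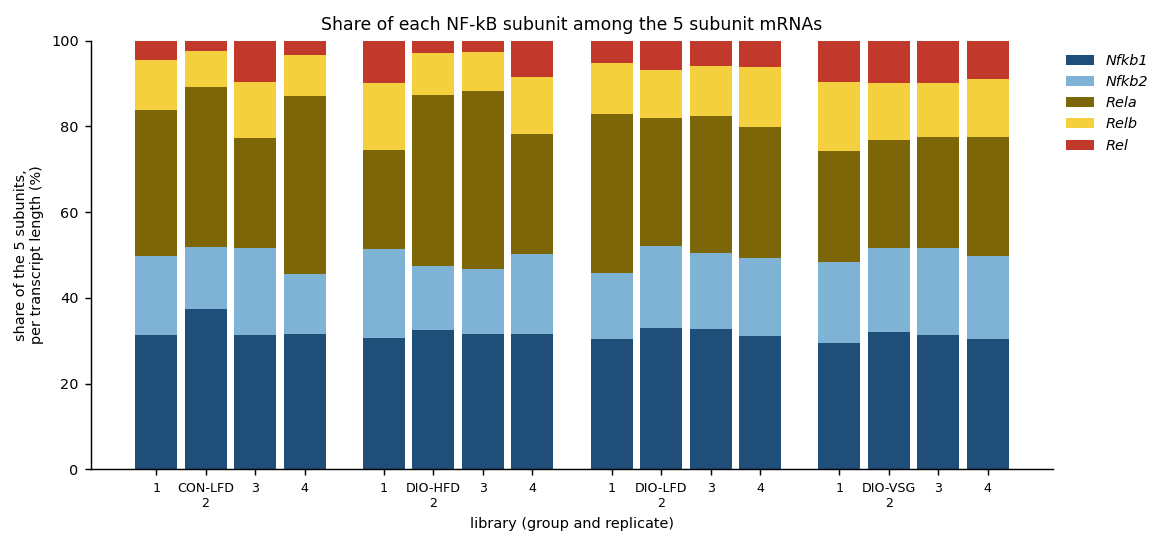
Share of each subunit among the 5 NF-kB subunit mRNAs (y axis, percent, normalized count per base of the longest transcript) in each of the 16 libraries (x axis, group and replicate); each bar adds up to the whole. The Rel share is smallest in CON-LFD replicate 2 at 2.42% and largest in DIO-HFD replicate 1 at 9.92%, while the Nfkb1 share stays between 29.6% and 37.3%.

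The members differed in how much they varied. Over the 16 libraries the highest value was 10.2 times the lowest for Rel, 7.13 times for Nfkbie, 6.27 times for Tnfaip3, 5.34 times for Nfkbiz, 4.65 times for Relb and 3.51 times for Nfkb2. It was 2.21 times for Nfkbia, 2.09 times for Nfkb1 and 1.53 times for Rela, so the gene for p65 was the steadiest and the gene for c-Rel the least steady of the 9. DIO-HFD replicate 1 was the highest library for 7 members, all except Nfkbia and Nfkbiz, and it also had the lowest adipocyte score of the 16, at -1.27. For Rel and Nfkbie the variation was widest in CON-LFD and DIO-HFD. The coefficient of variation of Rel was 92.6% in CON-LFD and 86.8% in DIO-HFD but 12.4% in DIO-LFD and 8.99% in DIO-VSG, and that of Nfkbie was 75.9%, 76.1%, 19.7% and 8.86% in the same order. Nfkbia did not share this, with 28.7%, 25.4%, 30.7% and 18.9%.

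**Figure D2:**
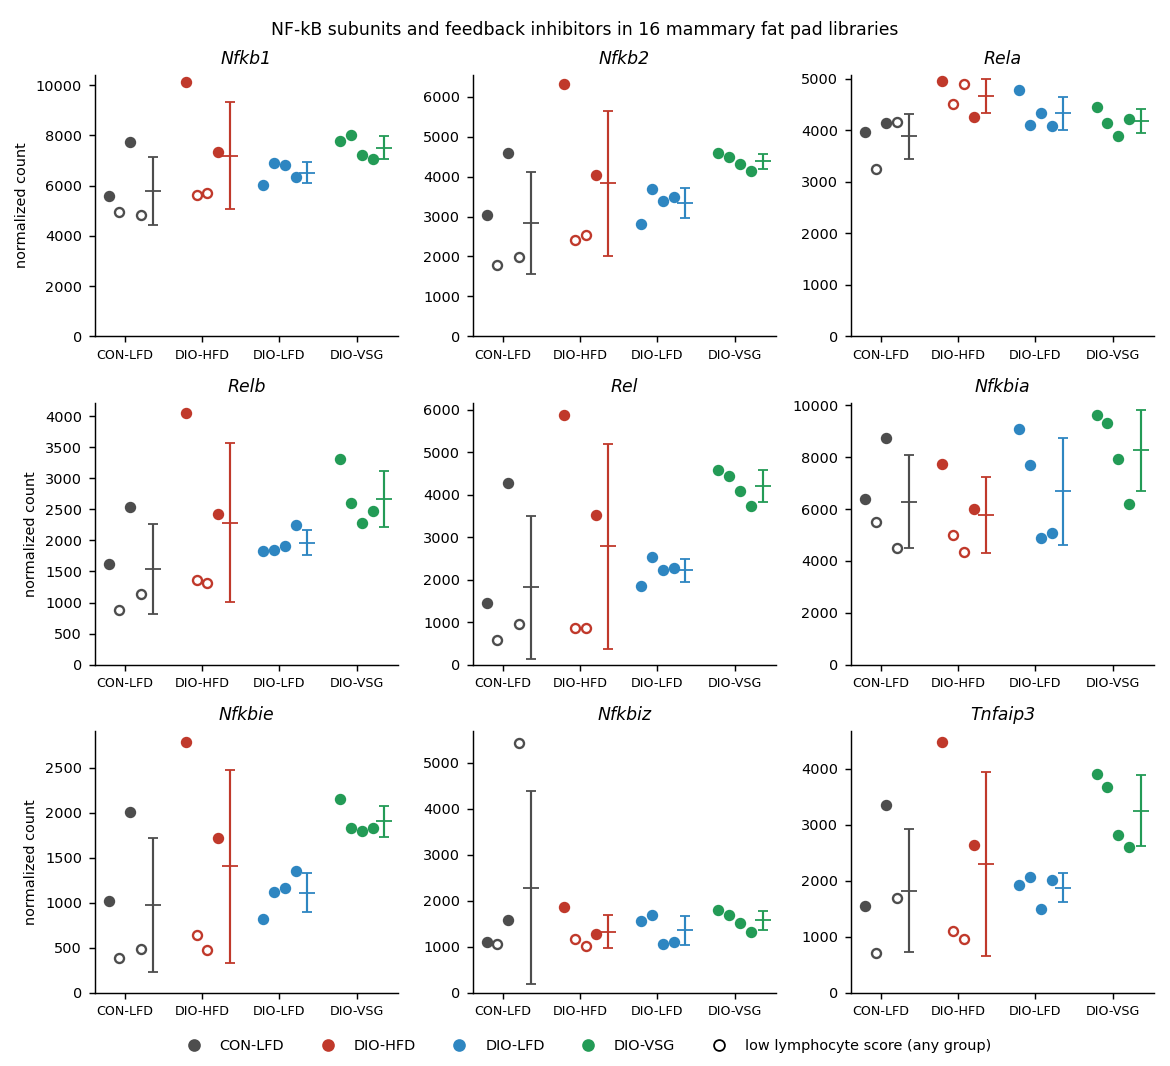
Normalized count (y axis, from 0) of each of the 9 genes in every library, by group (x axis), with the group mean and SD beside the points (n = 4); open points are the 4 libraries with low B and T cell scores. For Rel these 4 sit between 579 and 946, below the 12 others at 1462 to 5880, whereas the 16 values of Rela lie between 3241 and 4964.

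Rel, which encodes c-Rel, had 1462, 579, 4285 and 946 normalized counts in replicates 1 to 4 of CON-LFD and 5880, 868, 859 and 3532 in DIO-HFD. It had 1862, 2532, 2228 and 2265 in DIO-LFD and 4580, 4443, 4086 and 3738 in DIO-VSG. The CON-LFD and DIO-HFD values thus spanned both ends of the series, and every DIO-VSG value lay above every DIO-LFD value. The group means ± SD (n = 4) were 1818 ± 1684, 2785 ± 2417, 2222 ± 276 and 4212 ± 379. The gene lies on chr11:23736847-23770970 (minus strand, GRCm38, GENCODE M21), and its window printed above holds 3 matches over both strands, at 2 overlapping positions 1 base apart.

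Relb, the partner of p52 in the non-canonical route (chr7:19606217-19629438, minus strand), had 1626, 872, 2533 and 1140 normalized counts in the CON-LFD libraries and 4057, 1364, 1309 and 2428 in the DIO-HFD libraries. It had 1830, 1852, 1916 and 2256 in DIO-LFD and 3311, 2598, 2289 and 2481 in DIO-VSG. Here too the DIO-VSG libraries were all above the DIO-LFD libraries, by a small gap. Nfkb2 (chr19:46304320-46312385, plus strand), which supplies p100 and p52, had 3029, 1798, 4579 and 1978 in CON-LFD and 6318, 2414, 2544 and 4042 in DIO-HFD. It had 2819, 3683, 3398 and 3482 in DIO-LFD and 4583, 4494, 4306 and 4148 in DIO-VSG. The DIO-VSG libraries were the most even of the 4 groups for Nfkb2, with a coefficient of variation of 4.43%.

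Nfkb1 (chr3:135584655-135691547, minus strand), the source of p50, had 5603, 4952, 7743 and 4847 normalized counts in the CON-LFD libraries and 10139, 5613, 5695 and 7355 in the DIO-HFD libraries. It had 6018, 6917, 6809 and 6348 in DIO-LFD and 7775, 8029, 7201 and 7049 in DIO-VSG. The order of libraries was like that of Nfkb2 at a smaller amplitude. Rela (chr19:5637483-5648130, plus strand), which encodes the main transactivating subunit p65, had 3965, 3241, 4141 and 4169 in CON-LFD and 4964, 4506, 4906 and 4264 in DIO-HFD. It had 4784, 4110, 4330 and 4078 in DIO-LFD and 4452, 4143, 3880 and 4217 in DIO-VSG. All 4 DIO-HFD values of Rela were above all 4 CON-LFD values.

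Among the inhibitors, Nfkbia encodes IkB alpha, the IkB protein that is degraded and remade most rapidly (chr12:55489410-55492647, minus strand). It had 6380, 5511, 8726 and 4507 normalized counts in the CON-LFD libraries, 7725, 5014, 4353 and 5990 in the DIO-HFD libraries, 9083, 7688, 4867 and 5088 in DIO-LFD and 9635, 9306, 7916 and 6206 in DIO-VSG. All groups overlapped, and the spread within DIO-LFD was as wide as that within CON-LFD. Nfkbie, which encodes IkB epsilon (chr17:45555703-45563169, plus strand), had 1022, 390, 2011 and 489 in CON-LFD and 2782, 640, 480 and 1725 in DIO-HFD. It had 820, 1124, 1163 and 1348 in DIO-LFD and 2155, 1832, 1794 and 1834 in DIO-VSG. Nfkbie followed the libraries in nearly the order of Rel.

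Tnfaip3 encodes A20, a ubiquitin-editing enzyme that shuts off signals upstream of the kinase complex (chr10:19000910-19015657, minus strand). It had 1542, 716, 3354 and 1691 normalized counts in the CON-LFD libraries, 4486, 1097, 967 and 2643 in the DIO-HFD libraries, 1922, 2068, 1499 and 2011 in DIO-LFD and 3901, 3676, 2825 and 2602 in DIO-VSG. The DIO-VSG libraries lay above the DIO-LFD libraries and inside the range of DIO-HFD. Nfkbiz encodes IkB zeta, a nuclear IkB protein that acts on a subset of target promoters (chr16:55811375-55838899, minus strand). It had 1094, 1050, 1577 and 5425 in CON-LFD, 1854, 1172, 1015 and 1278 in DIO-HFD, 1565, 1693, 1063 and 1099 in DIO-LFD and 1798, 1680, 1517 and 1324 in DIO-VSG. A single library, CON-LFD replicate 4, was far above the other 15, which lay between 1015 and 1854. In that library the macrophage score was the highest of the 16, at 0.96, with the macrophage gene Adgre1 at 18530 normalized counts against 569 to 2914 elsewhere, and the skeletal muscle score was 3.81, second to 5.80 in DIO-LFD replicate 4, where Nfkbiz was at 1099. Their part in the Nfkbiz value was not tested.

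Obesity was addressed by DIO-HFD against CON-LFD, where obesity and current high-fat feeding cannot be told apart. Relative to CON-LFD, Rela was 1.21-fold higher in DIO-HFD (4660 ± 333 against 3879 ± 435 normalized counts, mean ± SD, n = 4; log2 change 0.27, SE 0.09), and the groups did not overlap (exact permutation P = 0.0286, the smallest that 4 against 4 can give). After adjustment by limma-trend over 21218 genes it did not pass (adjusted P = 0.262). The other members had changes from -0.45 for Nfkbiz to 0.54 for Rel with intervals that all included 0. Rel gave 0.54 (95% interval -0.78 to 1.86), Relb 0.53 (-0.22 to 1.27) and Nfkb2 0.42 (-0.23 to 1.06). The median over the members was 0.30, against 0.02 over all genes, and 0.44 without the 4 lymphocyte-poor libraries. It depended on single libraries, at 0.03 without DIO-HFD replicate 1, 0.14 without CON-LFD replicate 2, 0.51 and 0.57 without DIO-HFD replicates 2 and 3 and 0.61 without CON-LFD replicate 3. At the adjusted threshold 0 of 9 members were called, where 0.0377% of all genes were, and limma-voom on the recovered reads also called 0. At an unadjusted P value below 0.05 there was 1 of 9, against 12.9% of all genes. Groups that did not overlap in the higher direction were found for 1 of 9, against 1.76% of all genes (4.76% in either direction). With the adipocyte score as a covariate the median was -0.42, with Rel at -0.53, Nfkbie at -0.44 and Tnfaip3 at -0.51, and the adipocyte markers were lower in DIO-HFD in 17 of 20 cases (median -0.53, 5 by unadjusted P value). With the B and T cell score as a covariate the median was 0.16, with Rel at 0.16, Nfkbie at 0.14 and Tnfaip3 at -0.01. There 3 members (Nfkb2, Rela and Relb) had an unadjusted P value below 0.05, against 16.8% of all genes. The Rela change was 0.18 (adjusted P = 0.612) without the 4 lymphocyte-poor libraries, and the Nfkbiz change, -0.45 with all libraries, was 0.23 there and 0.09 without CON-LFD replicate 4 alone. When libraries were weighted by their estimated quality, 5 members (Nfkb1, Nfkb2, Relb, Rel and Nfkbie) passed the adjusted threshold, as did 4196 of the 21218 genes.

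Weight loss by surgery was addressed by DIO-VSG against DIO-HFD. These groups also differed in diet, so surgery, diet change and weight loss cannot be told apart. Relative to DIO-HFD, no member passed the test (0 of 9, against 0% of all genes by adjusted P value, also 0 with limma-voom, and 0 of 9 against 13.2% by unadjusted P value). Nfkbia came closest, at 8266 ± 1562 in DIO-VSG against 5770 ± 1466 in DIO-HFD (1.45-fold; log2 change 0.53, SE 0.25, adjusted P = 0.382). Rel gave a log2 change of 1.08 (SE 0.62), and DIO-HFD held values both above and below all of DIO-VSG. Without DIO-HFD replicate 1, 6 of 9 members had an unadjusted P value below 0.05, as did 5841 of 21218 genes (27.5%). Rela gave -0.16 (-0.36 to 0.04), the only negative change. The median over the members was 0.37. It was 0.68, 0.23 and 0.16 without DIO-HFD replicates 1, 2 and 3, when Rel gave 1.60, 0.68 and 0.68, and -0.14 without the 4 lymphocyte-poor libraries, when Rel gave -0.12, Nfkbie -0.21 and Tnfaip3 -0.10. With the adipocyte score as a covariate the change of Rel was 1.28 and passed the threshold (adjusted P = 0.0456), as did 1597 of all genes. With the B and T cell score as a covariate it was 0.03 (adjusted P = 0.98), and the median -0.16.

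Weight loss by diet was addressed by DIO-LFD against DIO-HFD, where diet change and weight loss cannot be told apart. None of the 9 members passed (0% of all genes by adjusted P value, also 0 with limma-voom, and 0 of 9 against 8.53% by unadjusted P value). All changes lay between -0.11 for Rela and 0.19 for Nfkbia, and the intervals reached from -1.17 to 1.48 for Rel. The median was -0.02, and between -0.25 and 0.26 when 1 library was left out. In Rel, 2 DIO-HFD libraries were above every DIO-LFD library and 2 below. Without the 4 lymphocyte-poor libraries the median was -0.60, with Rel at -1.04 and Tnfaip3 at -0.89, and 6 of 9 members had an unadjusted P value below 0.05, as did 4910 of 21218 genes. None passed the adjusted threshold there, and DIO-HFD then rested on 2 libraries. The covariates moved the values in opposite directions. With the adipocyte score the median was 0.48, with Rel at 1.16 and Tnfaip3 at 0.70 and 4 of 9 members at an unadjusted P value below 0.05, against 19.3% of all genes. With the B and T cell score the median was -0.30 and Rel -0.30, with 4 of 9 against 15.8%. Changes on this contrast were positive for 18 of 20 adipocyte markers (median 0.49, 5 by unadjusted P value), 15 of 19 mammary epithelial markers (0.62, 8 by that measure), 12 of 12 skeletal muscle markers (1.99, 1), 16 of 17 B cell markers (1.47, 0), 19 of 20 T cell markers (0.83, 0) and 8 of 10 lymph node stroma markers (1.17, 0), and their part was not tested.

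Surgery with the low-fat diet was set against the diet alone by DIO-VSG against DIO-LFD. Neither group held a lymphocyte-poor library. Of the 9 members, 6 had DIO-VSG values that were all above the DIO-LFD values, namely Nfkb1, Nfkb2, Relb, Rel, Nfkbie and Tnfaip3 (exact permutation P = 0.0286 for each, the smallest possible). Of all genes 12.9% did, and 18.8% had groups that did not overlap in either direction. Rel was 1.9-fold higher (4212 ± 379 against 2222 ± 276), Nfkbie 1.73-fold (1904 ± 169 against 1114 ± 219), Tnfaip3 1.72-fold (3251 ± 634 against 1875 ± 258), Relb 1.35-fold (2670 ± 446 against 1963 ± 198), Nfkb2 1.32-fold (4383 ± 194 against 3345 ± 371) and Nfkb1 1.15-fold (7514 ± 465 against 6523 ± 417). Rela did not follow, at 4173 ± 236 against 4326 ± 326. In the fit of all 16 libraries, whose shared spread includes the uneven CON-LFD and DIO-HFD groups, 0 of 9 passed by adjusted P value (0% of all genes, lowest adjusted P = 0.534 for Tnfaip3, also 0 with limma-voom) and 0 of 9 by unadjusted P value, against 9.71% of all genes. In a fit of these 8 libraries alone, 4 members passed (Nfkb2, Rel, Nfkbie and Tnfaip3), as did 1533 of 21218 genes, with adjusted P values of 0.0128 for Rel, 0.0218 for Nfkbie and 0.0275 for Tnfaip3. The T cell markers moved with these members: their summed level was 53730 to 86049 normalized counts in DIO-VSG and 16975 to 35160 in DIO-LFD, and that of the B cell markers 107282 to 121857 and 40553 to 66917. With the B and T cell score as a covariate, the change of Rel went from 0.93 to 0.33, that of Nfkbie from 0.79 to 0.26 and that of Tnfaip3 from 0.78 to 0.36. With the adipocyte score as a covariate these 3 were 0.12, 0.11 and 0.21. The adipocyte markers had negative changes in 20 of 20 cases (median -0.42, 0 by unadjusted P value), the endothelial markers in 12 of 12 (-0.48, 2 by that measure), the macrophage markers in 17 of 20 (-0.47, 2), the mammary epithelial markers in 17 of 19 (-0.39, 1) and the skeletal muscle markers in 10 of 12 (-0.26, 0). The keratinocyte markers were negative in 7 of 9 cases (-0.71, 2). Dendritic cell markers were positive in 9 of 12 (median 0.70, 0 by unadjusted P value), neutrophil markers in 9 of 11 (0.73, 1) and lymph node stroma markers in 6 of 10 (0.69, 0 higher and 1 lower). Their part in the members' changes was not tested.

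DIO-VSG was also compared with CON-LFD. The median over the members was the largest of the 6 comparisons, at 0.72 against -0.02 over all genes, although Rela, Nfkbia and Nfkbiz had a larger change in another comparison. Rel was 3.08-fold higher in DIO-VSG (log2 change 1.62, SE 0.62), Nfkbie 2.4-fold (1.26, SE 0.53), Tnfaip3 2.02-fold (1.02, SE 0.47), Relb 1.86-fold (0.89, SE 0.35), Nfkb2 1.65-fold (0.72, SE 0.30) and Nfkb1 1.32-fold (0.40, SE 0.18). These 6 had an unadjusted P value below 0.05, where 17.8% of all genes did in either direction and 10.2% in the higher direction. By adjusted P value 0 of 9 passed (0% of all genes, lowest 0.268, also 0 with limma-voom), and the groups overlapped for all 9, with CON-LFD replicate 3 inside the DIO-VSG range in each of these 6. Without CON-LFD replicate 3, 1 member (Rel) passed the adjusted threshold, as did 873 of all genes, and without CON-LFD replicate 2 or replicate 4, 0 members had an unadjusted P value below 0.05. Without the 4 lymphocyte-poor libraries the median was 0.26 and Rel gave 0.75 (adjusted P = 0.773), and with the B and T cell score as a covariate the median was 0.04, Rel 0.19 and Nfkbie -0.02. The B and T cell markers were higher in DIO-VSG on the same contrast, with 15 of 17 and 18 of 20 at an unadjusted P value below 0.05, all in that direction. With the adipocyte score as a covariate 0 members were below that P value (6.33% of all genes were). The adipocyte markers were negative in 20 of 20 cases (median -0.48, 0 by unadjusted P value). With quality weights 6 members passed the adjusted threshold, as did 4226 of all genes.

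Between DIO-LFD and CON-LFD, the comparison of formerly obese with never obese mice, none of the 9 members passed by adjusted P value (0.00471% of all genes did, also 0 members with limma-voom) or by unadjusted P value (6.26% of all genes). Rela came closest, at 0.16 (-0.04 to 0.36, adjusted P = 0.857), and Rel gave 0.70 (-0.62 to 2.02). The median of 0.23 was -0.16 without the 4 lymphocyte-poor libraries, 0.13 without CON-LFD replicate 2 and 0.59 without CON-LFD replicate 3. With the B and T cell score as a covariate it was -0.12, with Rel at -0.14. Changes on this contrast were positive for 17 of 17 B cell (median 2.60), 20 of 20 T cell (1.33), 11 of 11 neutrophil (1.18) and 11 of 12 dendritic cell markers (0.73). They were also positive for 9 of 10 lymph node stroma (1.75), 9 of 9 keratinocyte (1.06) and 11 of 12 endothelial markers (0.25). Of all these markers 0 passed by unadjusted P value, and their part was not tested.

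**Figure D3:**
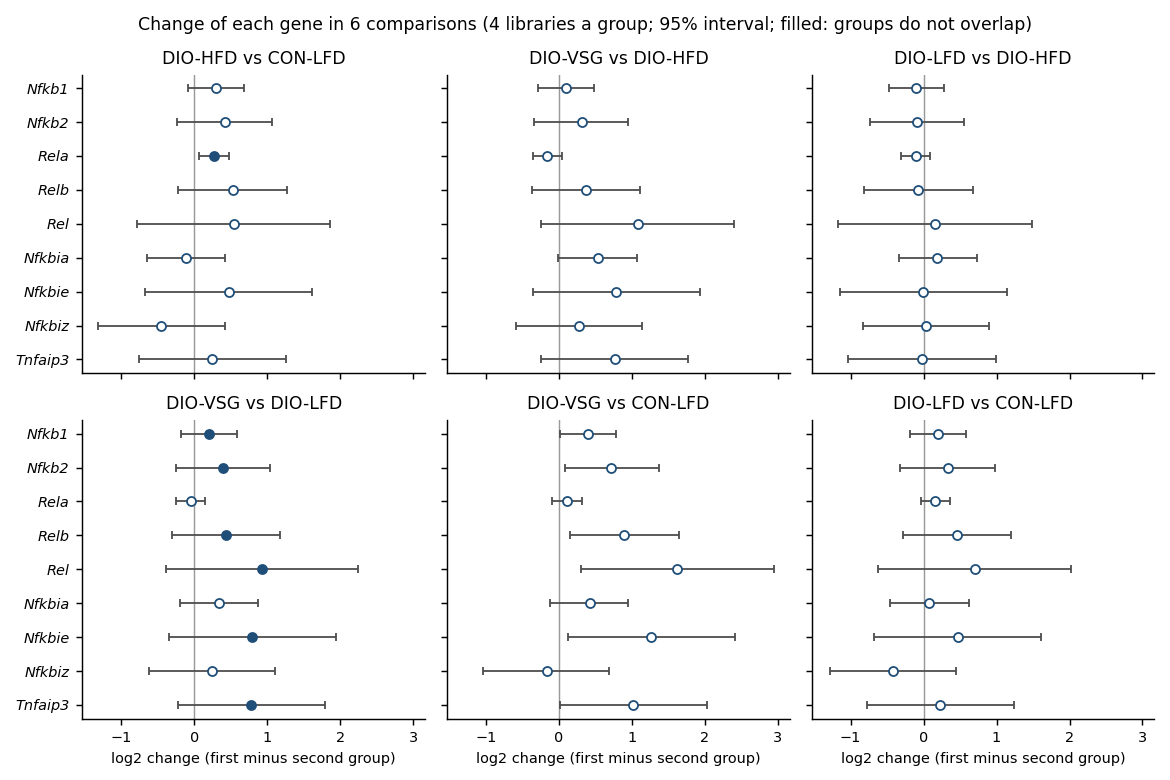
Log2 change (x axis, first minus second group) of each gene (y axis) in the 6 comparisons, with its 95% interval from the fit of 16 libraries; filled points mark genes whose 4 and 4 libraries did not overlap. Filled points are Rela in DIO-HFD against CON-LFD and 6 genes in DIO-VSG against DIO-LFD, and the intervals of Rel are the widest throughout.

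**Figure D4:**
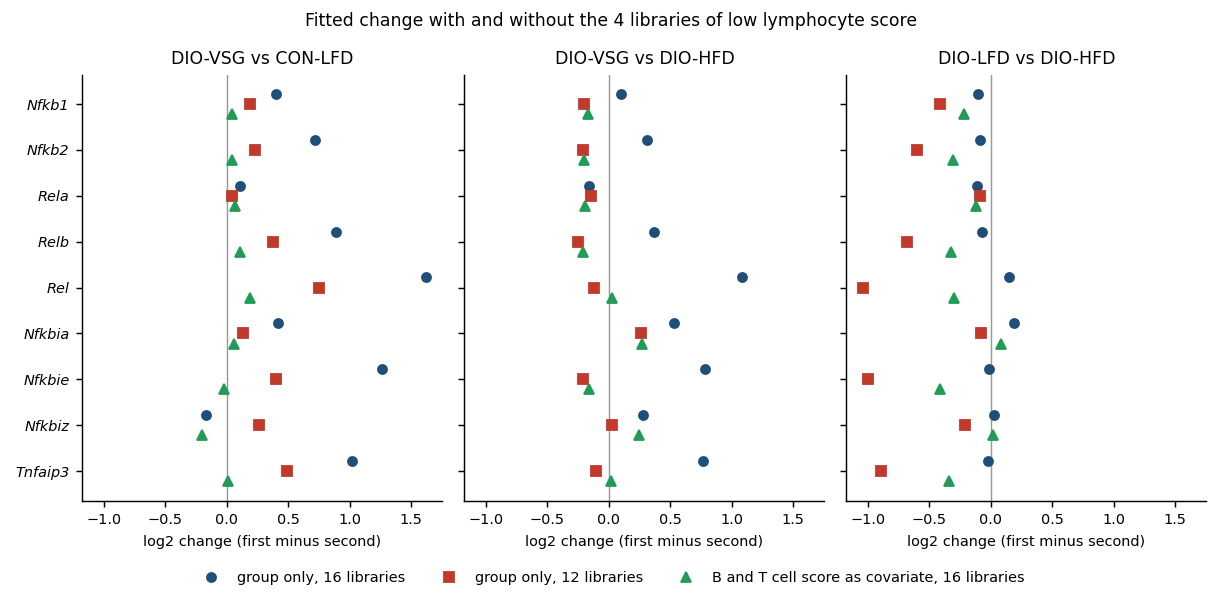
Log2 change (x axis) of each gene (y axis) in 3 comparisons from the fit of all 16 libraries (circles), without the 4 lymphocyte-poor libraries (squares) and with the B and T cell score as a covariate (triangles). For Rel in DIO-VSG against CON-LFD the values are 1.62, 0.75 and 0.19, whereas those of Rela are 0.11, 0.04 and 0.07.

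Rel, Relb, Nfkb2 and Nfkbie were lower in all 4 lymphocyte-poor libraries than in any of the 12 others (4 of 9 members, against 6.19% of all genes). For Rel the 4 had at most 946 normalized counts and the 12 at least 1462, for Nfkbie 640 and 820, for Relb 1364 and 1626 and for Nfkb2 2544 and 2819. Tnfaip3 overlapped through CON-LFD replicate 4, at 1691, and Nfkb1 by a small margin. Because the scores fell into 2 clusters, no correlation was computed over all 16 libraries for them. Within the other 12, Pearson's r of the log2 value with the T cell score was 0.97 for Nfkbie, 0.92 for Rel and Relb, 0.90 for Nfkb2, 0.89 for Tnfaip3 and 0.81 for Nfkb1, with Spearman's rho of 0.99, 0.90, 0.92, 0.93, 0.85 and 0.83 (permutation test, adjusted P from 6.00e-05 to 0.00121 for r and from 9.00e-05 to 0.0029 for rho, over 36 relations). Rela gave 0.19 (adjusted permutation P = 0.726), with rho of 0.24, and Nfkbia 0.30 (0.494), with rho of 0.31, so a relation to the score was not detectable for these 2 members. After leaving out the 2 libraries farthest from the median score, r was 0.97 for Nfkbie, 0.96 for Rel, 0.93 for Relb, 0.70 for Nfkbia and 0.56 for Rela, and that of Nfkbiz went from 0.47 to 0.92. Within groups, with group means removed, r was 0.95 for Nfkbie, 0.92 for Relb, 0.83 for Rel and 0.07 for Nfkbia.

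With the B cell score, r over the 12 libraries was highest for Rel, at 0.97, and was 0.95 for Nfkbie, 0.93 for Nfkb2, 0.87 for Nfkb1, 0.86 for Tnfaip3 and 0.83 for Relb (permutation test, adjusted P from 6.00e-05 to 0.0018; rho 0.96, 0.92, 0.97, 0.91, 0.92 and 0.89). Nfkbiz gave r of 0.54 (adjusted permutation P = 0.125) and rho of 0.66 (0.0396), Nfkbia r of 0.29 (0.505) and Rela r of 0.06 (0.965). The B and T cell scores move together over these libraries, so the values do not separate the 2 cell types. With the macrophage score over all 16 libraries, r was between -0.23 and 0.12 for every member except Rela and Nfkbiz, and between -0.49 and -0.29 without the 2 farthest libraries. It was 0.63 for Rela (rho 0.59, adjusted permutation P = 0.0198 and 0.0339), but 0.19 without the 2 farthest libraries, so this relation rests on those 2, and 0.42 for Nfkbiz (adjusted P = 0.187, rho 0.18). With the adipocyte score r was -0.92 for Nfkb1 (rho -0.92), -0.84 for Nfkb2 (rho -0.86), -0.79 for Relb (rho -0.85) and -0.74 for Rel (rho -0.83), with adjusted permutation P from 6.00e-05 to 0.00113 for both measures. Without the 2 farthest libraries these were -0.88, -0.82, -0.73 and -0.74. Normalized counts are relative to the whole library, and the part of the adipocyte share in these relations was not tested.

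**Figure D5:**
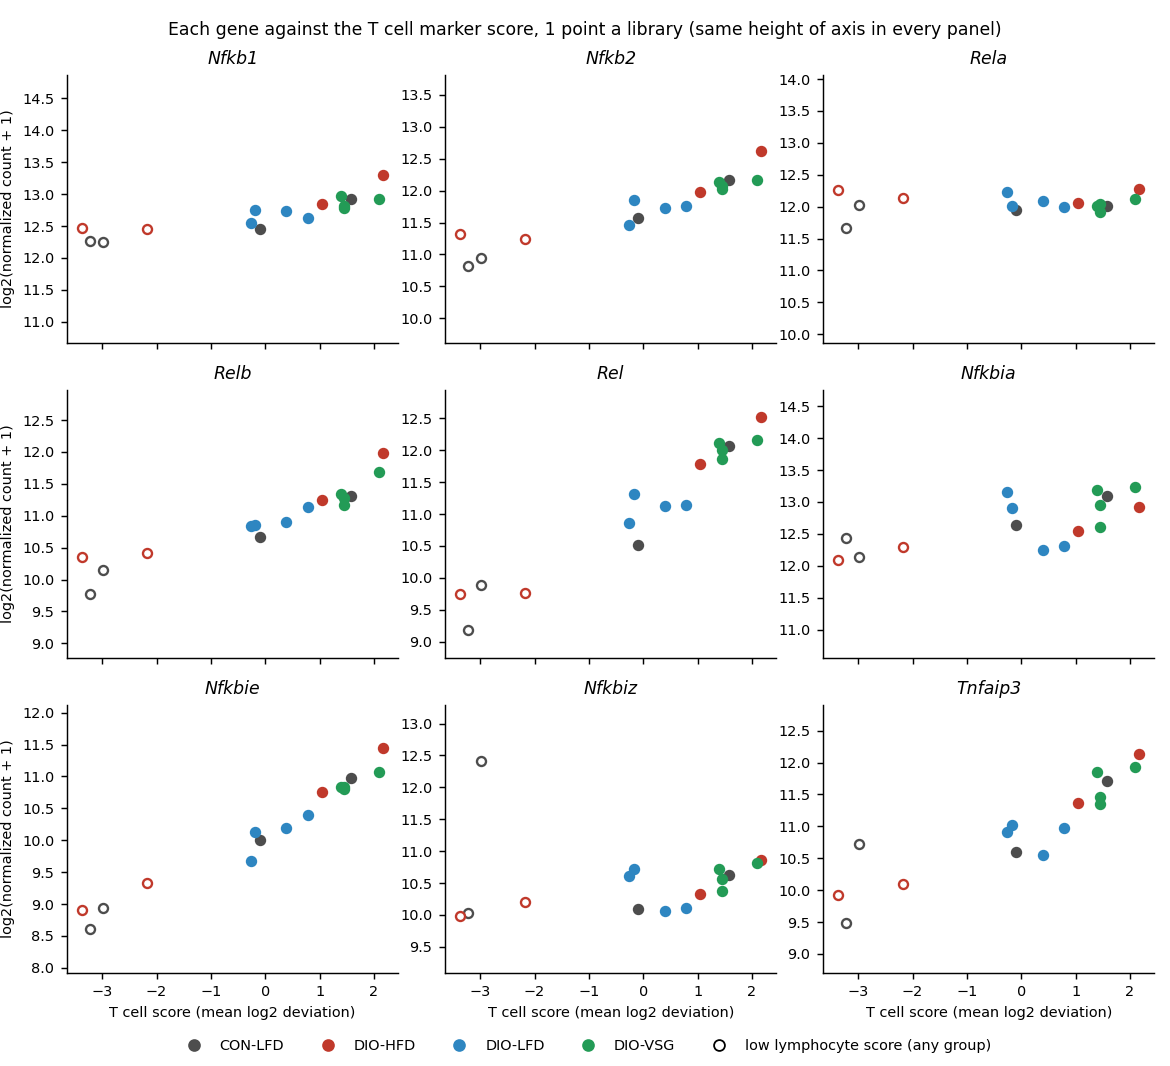
Log2(normalized count + 1) of each gene (y axis, spanning the same number of log2 units in each panel) against the T cell score (x axis, mean log2 deviation of 20 markers), 1 point a library, coloured by group; open points are the 4 lymphocyte-poor libraries. Nfkbie follows the score over the 12 other libraries (r = 0.97), Rela does not detectably (r = 0.19), and the high open point for Nfkbiz is CON-LFD replicate 4 at 5425 normalized counts.

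Nfkb1, Nfkb2, Relb, Rel, Nfkbie and Tnfaip3 varied together across libraries, with r of 0.87 to 0.96 between any pair of them over the 12 libraries. The log2 values of Rel and Nfkbie had r = 0.95, Nfkb2 and Nfkbie 0.96, Nfkb1 and Nfkb2 0.96 and Rel and Tnfaip3 0.94, and Relb gave 0.90 to 0.92 with each of the other 5. Rela had r of 0.16 to 0.49 with every other member. Nfkbia and Nfkbiz had r of 0.88 with each other, but 0.13 over all 16 libraries. Nfkbia had at most 0.62 with the other members, and Nfkbiz had 0.78 with Tnfaip3, 0.67 with Nfkb1 and Rel, 0.62 with Nfkb2 and 0.60, 0.49 and 0.42 with Relb, Nfkbie and Rela. Over all 16 libraries Nfkbiz had 0.34 with Tnfaip3 and -0.03 to 0.11 with Nfkb1, Nfkb2, Rela, Relb, Rel and Nfkbie. These values are descriptions over libraries that share their normalization and cell makeup. The ratio of Rel to Rela per kilobase was 0.0637 in DIO-HFD replicate 3 and 0.431 in DIO-HFD replicate 1, and 0.322 to 0.39 in DIO-VSG.

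The genes whose pattern over the 16 libraries was most like that of a member were sought among 13297 genes with a mean of at least 100 normalized counts, as a description by Pearson's r. These r span both clusters of libraries, and none was computed over the 12 alone. For Rel, Relb, Nfkb2 and Nfkbie they include the gap between the 4 lymphocyte-poor libraries and the 12. The other members had no such full gap, so their r are not directly comparable. The closest genes were Psd4, Icosl and Stk17b for Rel (r = 0.995, 0.994 and 0.991), Cd28, Slc7a11 and Zc3h12d for Nfkbie (0.992, 0.989 and 0.989) and Rinl, Foxp3 and Tnfrsf4 for Relb (0.979, 0.978 and 0.976). Cd28 is a costimulatory receptor of T cells and one of the T cell markers, and Foxp3 is the regulator of regulatory T cells. Tnfrsf4 encodes OX40, a costimulatory receptor on T cells, and Icosl a ligand displayed by B cells and other antigen-presenting cells. Nfkb2 was most like Eml4, Arhgap25 and Nubp1 (0.986, 0.979 and 0.978), Nfkb1 like Fut4, Prr14l and Ppp1r16b (0.975, 0.972 and 0.969) and Tnfaip3 like Birc3, RP23-285C18.7 and Rcsd1 (0.981, 0.979 and 0.978), where Birc3 encodes cIAP2, itself an NF-kB target. The closest matches were looser for Nfkbia (Cep85, Pkig and Strip2 at 0.935, 0.933 and 0.931), Rela (Gnai3, Hivep1 and Erich1 at 0.918, 0.902 and 0.891) and Nfkbiz (Lst1, Herpud1 and Nrxn2 at 0.900, 0.879 and 0.860).

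The rest of the pathway was read from 6 lists that hold none of the 9 members. No listed gene passed the adjusted threshold in any comparison, with all libraries or without the 4 lymphocyte-poor ones. By unadjusted P value, 5.23% of all genes were higher in DIO-HFD than in CON-LFD, 10.2% were higher in DIO-VSG than in CON-LFD and 8.12% were lower in DIO-VSG than in DIO-HFD. These shares without the 4 lymphocyte-poor libraries were 3.11%, 2.3% and 2.48%, and 3.39% of all genes were higher in DIO-LFD than in CON-LFD. Markers of other cells moved on these contrasts too. In DIO-HFD against CON-LFD changes were positive for 17 of 17 B cell (median 1.14), 20 of 20 T cell (0.64), 16 of 20 macrophage (0.38), 12 of 12 dendritic cell (0.47), 9 of 11 neutrophil (1.11), 11 of 12 endothelial (0.33), 8 of 10 lymph node stroma (0.57) and 8 of 9 keratinocyte markers (1.32). The keratinocyte markers were highest in DIO-HFD replicate 4, where their sum reached 15961 normalized counts against 1200 to 3788 in the other 15 libraries. Without that library the median over the 9 members was 0.27 on this contrast, 0.45 in DIO-VSG and 0.03 in DIO-LFD against DIO-HFD. Changes were negative for 17 of 20 adipocyte (-0.53), 17 of 19 mammary epithelial (-0.69, 6 by unadjusted P value) and 12 of 12 skeletal muscle markers (-1.88). In DIO-VSG against DIO-HFD they were positive for 16 of 17 B cell (2.64), 20 of 20 T cell (2.21), 10 of 11 neutrophil (0.75), 11 of 12 skeletal muscle (1.63) and 7 of 10 lymph node stroma markers (1.81), and negative for 18 of 20 macrophage (-0.57), 12 of 12 endothelial (-0.51, 7 by unadjusted P value) and 7 of 9 keratinocyte markers (-1.47). In DIO-VSG against CON-LFD, beside the B and T cell markers, 10 of 11 neutrophil (2.20), 11 of 12 dendritic cell (1.25) and 8 of 10 lymph node stroma markers (2.15) were positive and 20 of 20 adipocyte markers (-0.48) negative. Also negative were 14 of 19 mammary epithelial (-0.45, 4 by unadjusted P value), 11 of 12 endothelial (-0.24, 0), 13 of 20 macrophage (-0.30, 1) and 9 of 12 skeletal muscle markers (-0.28, 0). Their part in the values of the lists was not tested.

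Of the 20 kinases and adaptors of the canonical route, 2 had an unadjusted P value below 0.05 in DIO-HFD against CON-LFD, both higher: Tradd, an adaptor of the TNF receptor (705 ± 91.1 against 550 ± 61.5 normalized counts, log2 change 0.36, adjusted P = 0.247), and Bcl10, an adaptor of antigen receptor signaling (1911 ± 316 against 1565 ± 351, 0.30, adjusted P = 0.387). Without the 4 lymphocyte-poor libraries 1 of the 20 was higher and 1 lower. In DIO-VSG against CON-LFD 6 of the 20 were higher and 0 lower by that measure, but 0 without the 4 lymphocyte-poor libraries. The 14 genes of the non-canonical branch, among them the receptors Cd40 and Ltbr and the kinase Map3k14, had a median log2 change of 0.43 in DIO-HFD against CON-LFD with 0 below that P value, and of 1.32 in DIO-VSG against CON-LFD with 9 higher and 0 lower. Without the 4 lymphocyte-poor libraries these medians were 0.79, with 3 higher, and 0.50, with 1 higher.

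Of 12 activating cytokines and receptors, 2 were higher by unadjusted P value in DIO-HFD against CON-LFD, the receptors Tnfrsf1b (0.68, adjusted P = 0.379) and Il1r1 (0.33, adjusted P = 0.356), and 1 was higher without the 4 lymphocyte-poor libraries. Among 29 listed canonical target genes, 26 changes were positive in that comparison (median 0.49, against 0.02 over all genes), with 6 higher and 1 lower by unadjusted P value. Without the 4 lymphocyte-poor libraries the median was 0.57, with 3 higher and 1 lower. The largest were the chemokines Cxcl2 (38.9 ± 30 against 4.53 ± 2.85 normalized counts, 2.65, adjusted P = 0.265) and Ccl7 (505 ± 393 against 122 ± 66.1, 1.82, adjusted P = 0.254) and the cytokine Il6 (8.73 ± 3.12 against 2.53 ± 2, 1.67, adjusted P = 0.27), with Cxcl2 and Il6 at low counts, and the mitochondrial dismutase Sod2 was the lower one (-0.53, adjusted P = 0.363). In DIO-VSG against DIO-HFD the list's median was -0.04, with 0 higher and 6 lower by unadjusted P value, and -0.19 with 1 higher and 1 lower without the 4. Against CON-LFD, 28 of the 29 changes were also positive in DIO-LFD (median 0.63, 2 higher and 0 lower, where 3.23% of all genes were higher) and 20 of 29 in DIO-VSG (median 0.50, 7 higher and 0 lower), and the medians of these groups without the 4 were 0.11, with 4 higher, and 0.18, with 1 higher. The 9 non-canonical target genes, which include lymphoid chemokines such as Cxcl13 and Ccl19 that also mark lymph node stroma, had a median of 2.56 in DIO-VSG against CON-LFD (4 higher, 0 lower by unadjusted P value) and of 2.63 in DIO-VSG against DIO-HFD, where 0 were below that P value in either direction. Without the 4 lymphocyte-poor libraries these medians were 0.68, with 0 below that P value, and -0.11, with 1 lower. Of the 18 other IkB proteins and inhibitors, which include Nfkbib, Bcl3 and Cyld, 0 were below it in DIO-HFD against CON-LFD and 3 were higher in DIO-VSG against CON-LFD (1 in each without the 4). In DIO-VSG against DIO-LFD the canonical targets had a median of -0.23, with 0 higher and 2 lower by unadjusted P value. Medians were 0.02 for the activating cytokines and receptors (0 and 2), 0.80 for the non-canonical branch (0 and 1) and 0.94 for the non-canonical targets (0 and 0). They were 0.11 for the kinases and adaptors and 0.08 for the other IkB proteins and inhibitors (1 and 0 each). Of all genes 4.3% were higher and 5.41% lower.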

How the data were processed

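RNA-Seq of 16 mammary fat pad libraries was used, 4 for each of 4 groups taken from the sample titles. According to the study's methods, the authors aligned stranded total RNA reads with STAR, estimated transcripts with salmon and removed genes under 10 counts. The submitters' processing notes instead name TopHat2 2.0.7, HTSeq 0.5.3p9 and mm10, and both say that the authors normalized with DESeq2; which tools made the table was not settled. The deposited values are variance-stabilized log2 values with a shared floor of 5.36. They were inverted to normalized counts, from which whole reads were recovered for 100.0% of values (tolerance 0.1). Replicates differed by more than sampling noise (chi-square per gene at least 67.5).

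limma-trend (limma 3.58.1, R 4.3.3) was run two-sided on log2(normalized count + 1) in 1 fit of 16 libraries with a term for group. Testing was limited to 21218 genes reaching 10 normalized counts in 4 or more libraries, with Benjamini-Hochberg adjustment within each comparison and a threshold of 0.05. Fold changes are on that log2 scale. Exact permutation tests used 70 relabellings, and correlations 100000 permutations. The fit was tested on simulated data in which all groups had the same spread. That test does not show what the fit could detect in these uneven groups. Gene positions came from GENCODE M21 (GRCm38), promoter sequences from RefSeq. All members were named, with up to 3 genes of largest change in each direction in DIO-HFD against CON-LFD of each list. The members, lists and tests were chosen with earlier results of these data known.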

Additional observations from a re-analysis of the deposited data

Results flagged for a closer look

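For each member and group of 4 libraries, the gap between the extreme library and its nearest neighbour was set against the range of the group. Of 36 such groups 2 exceeded the critical value, and chance gives about 1 in 20. Nfkbiz in CON-LFD replicate 4 was at 5425 normalized counts, against 1050 to 1577 in the other CON-LFD libraries, where the macrophage score, at 0.96, was also the highest of the 16 libraries. Nfkbie in DIO-VSG replicate 1 was at 2155 normalized counts, against 1794 to 1834 in the other DIO-VSG libraries, a small difference in a group whose other values were nearly equal, and the T cell score of this library, at 2.09, was the highest of the DIO-VSG group.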

How the results depend on the processing

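Across 27 alternatives, 16 of which left out 1 library each, 1362 of 1458 member values kept their direction and their side of the adjusted threshold, 17 came to pass it and 79 changed sign, spread over 35 of 54 results. The causes were not tested. The lowest number of reads behind a value of a member was 368. Pseudocount 8, no filter on low values, the deposited log2 values and limma-voom moved no count of members called by over 1.5 times. Over all genes, limma-voom took the adjusted count in DIO-HFD against CON-LFD from 8 to 0 and in DIO-LFD against CON-LFD from 1 to 0, and pseudocount 8 and the deposited values took the latter to 2. Same-numbered libraries deviated together in 9 of 24 pairs (r above 0.1, range -0.61 to 0.53). Both extremes were between CON-LFD and DIO-HFD, at 0.53 for replicate 2, lymphocyte-poor in both, and -0.61 for replicate 3, lymphocyte-poor only in DIO-HFD. These deviations include the lymphocyte split, so this check cannot tell whether the numbers pair the samples. With the replicate block 1 member (Nfkbia) had an unadjusted P value below 0.05 in DIO-VSG against DIO-HFD (11.8% of all genes did), and 4 in DIO-VSG against CON-LFD (16%), and 0 passed the adjusted threshold in any comparison. Quantile normalization gave 1 by unadjusted P value in DIO-VSG against DIO-HFD (13.4% of all genes).

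A fit of the 8 libraries compared gave 1 member by unadjusted P value in DIO-VSG against DIO-HFD (12% of all genes), and 6 by unadjusted (25.3%) and 4 by adjusted P value (7.22%) in DIO-VSG against DIO-LFD. Array quality weights gave 5 and 6 members past the adjusted threshold in DIO-HFD and DIO-VSG against CON-LFD (19.8% and 19.9% of all genes), and 6, 1 and 4 by unadjusted P value in DIO-HFD against CON-LFD, DIO-VSG against DIO-HFD and DIO-VSG against DIO-LFD (37.5%, 33.9% and 25.9%). They turned Nfkbia to -0.08 in DIO-LFD against CON-LFD, Nfkbia to -0.04, Nfkbiz to -0.06 and Rel to -0.56 in DIO-LFD against DIO-HFD, and Nfkbiz to 0.12 in DIO-VSG against CON-LFD.

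With the B and T cell score as a covariate the median was 0.04 in DIO-VSG against CON-LFD and -0.16 in DIO-VSG against DIO-HFD, and members with an unadjusted P value below 0.05 numbered 3 in DIO-HFD against CON-LFD (16.8% of all genes), 1 in DIO-LFD against CON-LFD (12.7%), 4 in DIO-LFD against DIO-HFD (15.8%), 0 in DIO-VSG against CON-LFD (5.01%) and 1 in DIO-VSG against DIO-LFD (8.02%). In DIO-LFD against CON-LFD it gave Nfkb1 -0.01, Nfkb2 -0.07, Rel -0.14, Nfkbia -0.12, Nfkbie -0.27 and Tnfaip3 -0.35. In DIO-VSG against DIO-HFD it gave Nfkb1 -0.17, Nfkb2 -0.20, Relb -0.21 and Nfkbie -0.16. It also gave Nfkbie -0.02 in DIO-VSG against CON-LFD, Rel -0.30 in DIO-LFD against DIO-HFD and Tnfaip3 -0.01 in DIO-HFD against CON-LFD.

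With the adipocyte score as a covariate the median was -0.42 in DIO-HFD against CON-LFD and 0.48 in DIO-LFD against DIO-HFD. In DIO-VSG against DIO-HFD 1 member passed the adjusted threshold (7.53% of all genes did) and 7 the unadjusted one (29.1%), and by unadjusted P value there were 1 in DIO-LFD against CON-LFD (10.3%), 4 in DIO-LFD against DIO-HFD (19.3%) and 0 in DIO-VSG against CON-LFD (6.33%). DIO-HFD against CON-LFD gave Nfkb1 -0.04, Nfkb2 -0.13, Relb -0.07, Rel -0.53, Nfkbie -0.44 and Tnfaip3 -0.51. DIO-LFD against DIO-HFD gave Nfkb1 0.22, Nfkb2 0.43, Relb 0.49, Nfkbie 0.84 and Tnfaip3 0.70, and DIO-VSG against DIO-LFD gave Nfkb1 -0.05, Nfkb2 -0.02 and Relb -0.01.

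Leaving out the 4 lymphocyte-poor libraries was chosen after seeing the data. The median was then -0.60 in DIO-LFD against DIO-HFD, 0.26 in DIO-VSG against CON-LFD and -0.14 in DIO-VSG against DIO-HFD, and members with an unadjusted P value below 0.05 numbered 2 in DIO-HFD against CON-LFD (7.54% of all genes), 6 in DIO-LFD against DIO-HFD (23.1%), 0 in DIO-VSG against CON-LFD (5.12%) and 5 in DIO-VSG against DIO-LFD (21.7%). DIO-LFD against CON-LFD gave Nfkb1 -0.02, Nfkb2 -0.16, Relb -0.05, Rel -0.18, Nfkbia -0.21, Nfkbie -0.39, Nfkbiz 0.01 and Tnfaip3 -0.29. DIO-VSG against DIO-HFD gave Nfkb1 -0.20, Nfkb2 -0.21, Relb -0.25, Rel -0.12, Nfkbie -0.21 and Tnfaip3 -0.10. DIO-LFD against DIO-HFD gave Rel -1.04, Nfkbia -0.08 and Nfkbiz -0.21, and Nfkbiz was 0.23 in DIO-HFD and 0.26 in DIO-VSG against CON-LFD.

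Leaving out 1 library at a time, the median over the members ranged from 0.03 to 0.61 in DIO-HFD against CON-LFD, 0.16 to 0.68 in DIO-VSG against DIO-HFD, -0.25 to 0.26 in DIO-LFD against DIO-HFD, 0.33 to 0.46 in DIO-VSG against DIO-LFD, 0.54 to 0.99 in DIO-VSG against CON-LFD and 0.13 to 0.59 in DIO-LFD against CON-LFD. DIO-LFD against DIO-HFD ranged from -0.21 to 0.08 for Nfkb1, -0.27 to 0.19 for Nfkb2, -0.28 to 0.26 for Relb, -0.25 to 0.68 for Rel, -0.41 to 0.44 for Nfkbie, -0.08 to 0.21 for Nfkbiz and -0.34 to 0.40 for Tnfaip3, and Nfkb1 in DIO-VSG against DIO-HFD from -0.00 to 0.28. DIO-HFD against CON-LFD ranged from -0.26 to 0.06 for Nfkbia, -0.70 to 0.09 for Nfkbiz and -0.17 to 0.61 for Tnfaip3, and DIO-LFD against CON-LFD from -0.08 to 0.25, -0.67 to 0.12 and -0.15 to 0.60 for the same genes. Nfkbiz in DIO-VSG against CON-LFD ranged from -0.43 to 0.36, and was positive only without CON-LFD replicate 4. In DIO-VSG against CON-LFD, 0 to 1 members passed the adjusted threshold and 0 to 7 the unadjusted one: 7 without CON-LFD replicate 3 (30.5% of all genes), 0 without CON-LFD replicate 2 (9.72%) or 4 (8.95%), and 1, 2 and 3 without DIO-VSG replicates 1, 2 and 3 (10%, 12.6% and 13.3%). By unadjusted P value there were 1 to 4 in DIO-HFD against CON-LFD (4 without CON-LFD replicate 3, with 19.7% of all genes, and 2 without DIO-HFD replicate 2, with 14%), 0 to 2 in DIO-LFD against CON-LFD (2 without CON-LFD replicate 3, with 12.5%) and 0 to 6 in DIO-VSG against DIO-HFD (6 without DIO-HFD replicate 1, with 27.5%).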
